A study of Mus musculus with 4 samples.

Results

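The genes examined here encode 8 receptors with which macrophages take up modified lipoproteins, microbial particles and dying cells: Msr1, Marco, Olr1, Cd68, Scarb1, Mertk, Axl and Trem2. They were chosen by symbol, and each of the 8 matched 1 of the 34745 Ensembl gene IDs in the deposited table. The libraries came from mouse macrophages grown from C57BL/6 bone marrow. In 2 libraries the cells had been transfected with Acly-E14 siRNA (libraries Acly-E14si 1 and 2) and in 2 with control siRNA (control 1 and 2), and the cells of both groups were treated with lipopolysaccharide (LPS), so no library shows the receptors without LPS. No dose, time, sex or age of the mice is stated in the labels, nor whether the 2 libraries within a group stem from different animals or cultures. The p-values therefore describe the spread among these 4 libraries, which may be technical. E14 is not spelled out in the labels.

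Scavenger receptors bind oxidised or acetylated low-density lipoprotein, bacterial surface molecules and other polyanionic ligands, and in macrophages they are known for loading cells with lipoprotein cholesterol. Efferocytosis is the uptake of apoptotic cells. Its TAM receptor kinases, Tyro3, Axl and Mertk, do not touch the dying cell directly but are bridged to its exposed phosphatidylserine by the soluble proteins Gas6 and Pros1, whereas Trem2 is an immunoglobulin-type receptor for lipids and lipoproteins that signals through the adaptor Tyrobp (DAP12) and the kinase Syk.

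The 250 bases before the RefSeq start of Olr1, Trem2 and Cd68 are printed 5′ to 3′ on the gene's strand (GRCm38.p6, the assembly that mm10 names). Of the 6 windows at hand, these are the 3 that hold the first motif below. The window of Mertk, which fell, is not printed. Olr1 (chr6:129507166-129507415, minus strand) had the largest rise of the 8 genes, Cd68 (chr11:69666171-69666420, minus strand) the largest fall, and Trem2 (chr17:48346151-48346400, plus strand) a smaller rise. Capitals mark matches to any of 6 short motifs, searched on both strands. The first, TGANTCA with N for any base, is a loose form of the AP-1 site TGAGTCA. As a pattern it reads the same on either strand. The second, GAGGAA, is the core of sites for PU.1, the factor of the myeloid lineage. The third, CACGTG, is the palindromic E-box that basic helix-loop-helix proteins recognise. The fourth, GGGCGG, is the GC box bound by the ubiquitous factor SP1. The fifth, TATAAA, positions the polymerase at many regulated genes. The last, AGGTCA, is the half-site on which nuclear receptors sit.
Olr1: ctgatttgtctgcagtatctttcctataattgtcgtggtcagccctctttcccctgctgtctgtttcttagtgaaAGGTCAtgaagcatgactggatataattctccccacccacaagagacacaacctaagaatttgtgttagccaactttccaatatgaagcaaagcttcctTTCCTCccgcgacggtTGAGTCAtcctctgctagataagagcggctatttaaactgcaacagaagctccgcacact
Trem2: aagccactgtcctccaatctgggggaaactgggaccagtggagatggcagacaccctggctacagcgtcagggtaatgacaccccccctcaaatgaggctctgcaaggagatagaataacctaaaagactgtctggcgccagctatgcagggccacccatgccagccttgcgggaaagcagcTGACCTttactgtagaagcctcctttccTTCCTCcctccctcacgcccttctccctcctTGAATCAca
Cd68: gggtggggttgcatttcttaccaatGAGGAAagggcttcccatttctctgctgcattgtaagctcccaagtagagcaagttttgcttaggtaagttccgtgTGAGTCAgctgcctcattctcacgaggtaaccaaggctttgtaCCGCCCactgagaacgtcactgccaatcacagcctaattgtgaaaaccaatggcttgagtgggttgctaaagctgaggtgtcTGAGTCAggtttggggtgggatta

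RefSeq windows were at hand for 6 of the 8 genes, and none of the 6 overlapped an annotated exon. The AP-1 letters occurred in the 3 windows printed, at 54 to 60 bases before the start in Olr1, 3 to 9 in Trem2, and both 18 to 24 and 143 to 149 in Cd68. The windows of Marco, Mertk and Axl did not hold them, and 6.75% of all 32851 windows of that length did (4.77% of the windows of tested genes). The PU.1 core stood in 5 of the 6 windows, those of Marco, Olr1, Axl, Cd68 and Trem2, against 23.3% of all windows and 22.6% of those of tested genes. AGGTCA stood in Olr1 and Trem2 (14% of all windows and 10.8% of those of tested genes). The GC box stood in Axl, Cd68 and, at 3 places, Mertk, and in 32.7% of all windows and 57.2% of those of tested genes. For Mertk alone of the 6, the sequence after the window was not found near the start of an annotated transcript, so its window is less certain. E-box letters (6.02% and 8.27%) and those of the polymerase-positioning motif (12.4% and 6.63%) occurred in none of the 6. These matches describe letters only, and the pattern TGANTCA stood before genes that rose and a gene that fell. It read TGAGTCA in Olr1 and Cd68. In Trem2 it read TGAATCA, which departs from the AP-1 site TGAGTCA.

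Libraries held 21023197 to 21837806 counts. Acly, the siRNA target, was at 158 and 154 CPM (counts scaled to a library of fixed size, with TMM factors) in controls and at 118 and 127 in the Acly-E14si libraries (log2 change -0.35, SE 0.060, edgeR adjusted p = 0.0086). That call did not hold without control 1 (adjusted p = 0.058). The 12 macrophage markers summed to 19488 to 20740 CPM in controls and 21140 to 21298 CPM in Acly-E14si libraries. None of them was at 0 in all libraries. Of them 4 were higher (Cd14, Fcgr1, Mpeg1 and Laptm5) and 3 lower (Csf1r, Ptprc and Spi1), with a median log2 change of 0.08. The sums rest on a few abundant genes and do not measure macrophage content. Mpeg1 went from 4527 and 4326 CPM to 5635 and 5471 CPM. Ctss went from 8051 and 7422 CPM to 7137 and 6958 CPM and was not called. Calls made up 58.3% of these markers, against 33.2% of all genes tested. Leaving out control 1, control 2 or Acly-E14si 2 left 2 macrophage markers called in each case. Fibroblast and stroma markers were present in every library and differed between the groups. Their 15 genes summed to 2497 and 3596 CPM in controls and 5659 and 7010 CPM in Acly-E14si libraries. Of these genes 12 were higher (80.0% called) and 0 lower, with a median log2 change of 1.42 and none at 0 in all libraries. B and T cell markers summed to at most 0.183 CPM in any library, with Cd3e and Cd8a at 0, and dendritic cell markers to between 6.36 and 10.2 CPM, with 0 of 2 tested genes called. The neutrophil list had 2 of 3 tested genes higher and 1 lower, and the osteoclast list 1 of 3 higher and 2 lower. Both tested endothelial markers were lower, with Cldn5 and Emcn at 0. Leaving out control 1, Acly-E14si 1 or Acly-E14si 2 left 1 endothelial marker called.

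The receptor genes moved in both directions. Of the 8, all of which passed the filter on low counts, Msr1, Olr1 and Trem2 rose, Cd68 and Mertk fell, and Marco, Scarb1 and Axl were not called. Over the 13108 genes tested, 33.2% were called, 17.3% as higher and 15.9% as lower, so a call by itself is common in this comparison. Rises made up 52.0% of these calls, and 65.8% with unscaled library totals or with limma on log2(FPKM + 1). The median log2 change of the 8 was 0.16 against 0.00 over all genes tested. Without control 1 or without control 2 the receptor genes called were 3 in place of 5. In bulk RNA, fewer cells of a type and less RNA per cell cannot be told apart.

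**Figure D1:**
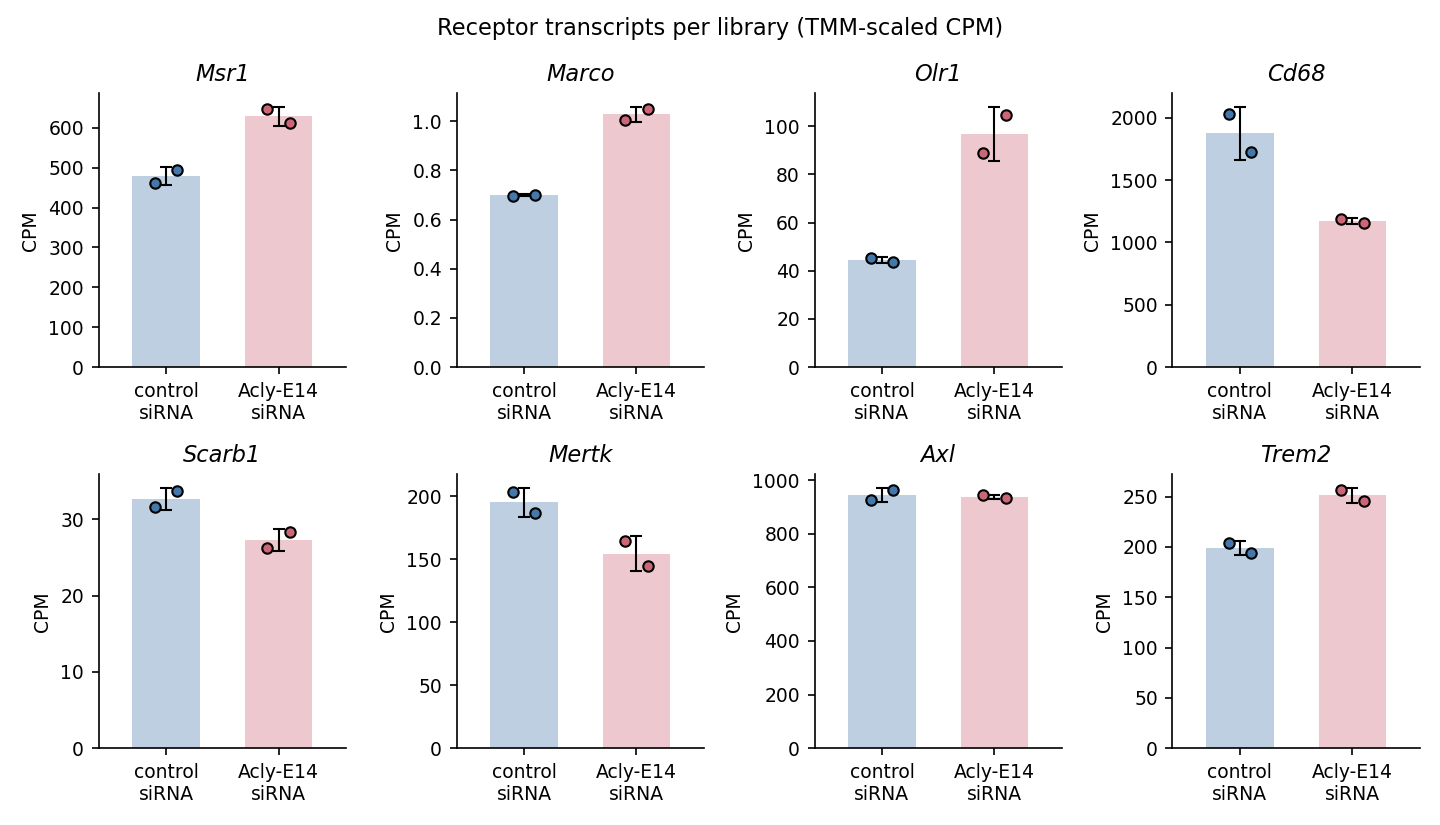
TMM-scaled CPM of the 8 receptor genes (y axis, each panel from 0) in control siRNA and Acly-E14si libraries. Points are libraries, bars the mean of 2 and whiskers the SD. Both Acly-E14si libraries lie above both controls for Msr1, Marco, Olr1 and Trem2, below them for Cd68, Scarb1 and Mertk, and among them for Axl. The groups did not overlap for 7 of the 8 genes, and for 70.6% of tested genes.

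Olr1 encodes LOX-1, a lectin-like receptor for oxidised low-density lipoprotein. The controls held 45.5 and 43.6 CPM of it and the Acly-E14si libraries 88.7 and 105 CPM. The groups did not overlap, which was so for 70.6% of tested genes. Even the lower treated library stood 0.96 on the log2 scale above the higher control. The rise was 2.17-fold (log2 1.12, SE 0.094, edgeR adjusted p = 0.0014), and 90.3% of tested genes had a smaller change. Under the 10 alternative fits its log2 change lay between 0.99 and 1.24 and its adjusted p was at most 0.017. Olr1 was the 1 receptor gene called with a log2 change beyond 1. It lies on chromosome 6 (129485244 to 129507165, minus strand, mm10, 8 merged exons).

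Msr1 encodes the class A scavenger receptor SR-A, which binds acetylated low-density lipoprotein and bacterial lipids. Its levels were 463 and 494 CPM in controls against 646 and 611 CPM with Acly-E14 siRNA. Here too the groups were separate, by 0.31 on the log2 scale between the nearest libraries, while libraries of a group differed by at most 0.095. The increase was 1.31-fold (log2 0.39, SE 0.061, edgeR adjusted p = 0.0067). Without control 1 the adjusted p was 0.054, with a log2 change of 0.34. Msr1 spans 39581685 to 39642673 on the minus strand of chromosome 8.

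Marco, the other class A receptor of the group and a receptor for bacteria and inert particles, had few counts. Controls held 14 and 15 counts of it, Acly-E14si libraries 22 and 23, and exact Poisson intervals, which cover counting error only, ran from 7.65 to 23.5 for the lowest and from 14.6 to 34.5 for the highest. The log2 change was 0.55 with a 95% interval of -0.24 to 1.35 and was not called (edgeR adjusted p = 0.23). A test with limma on log2(FPKM + 1) called it (adjusted p = 0.042). Its gene is on chromosome 1 (120474538 to 120505024, minus strand).

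Cd68 encodes macrosialin, a heavily glycosylated protein of late endosomes and lysosomes that is used as a macrophage marker and also binds oxidised low-density lipoprotein. It was at 2028 and 1726 CPM in controls and at 1187 and 1158 CPM in Acly-E14si libraries. The 2 controls differed from each other by 0.23 on the log2 scale, yet the lower of them was 0.54 above the higher treated library. Cd68 fell to 0.625 of the control level (log2 -0.68, SE 0.086, edgeR adjusted p = 0.0037), a call made in all 10 alternative fits with an adjusted p of at most 0.021. It sits on chromosome 11 (69664213 to 69666153, minus strand) and its exons, like those of the other 7 genes, share no base with another annotated gene.

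Scarb1 encodes SR-BI, which takes cholesteryl esters from high-density lipoprotein. It was at 31.6 and 33.7 CPM in controls and at 26.2 and 28.3 CPM in Acly-E14si libraries. Although the groups did not overlap, which was so for 70.6% of tested genes, the log2 change of -0.26 (SE 0.087, 95% interval -0.48 to -0.05 before adjustment) was not called (edgeR adjusted p = 0.065). The gene lies on chromosome 5 (125277087 to 125341094, minus strand).

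**Figure D2:**
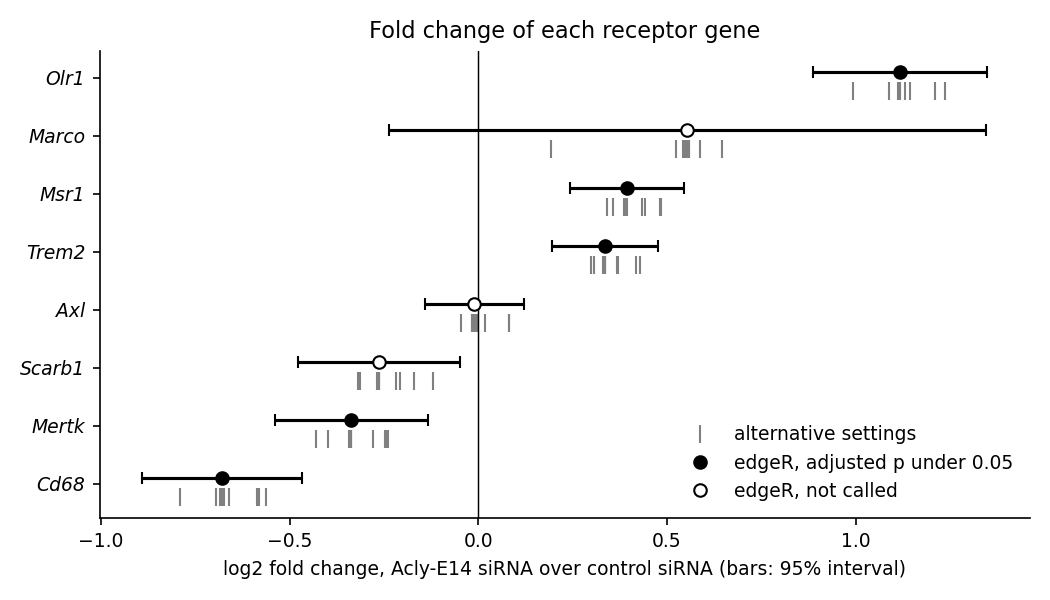
Log2 fold change of each receptor gene (x axis, Acly-E14 siRNA over control siRNA) from edgeR, with its unadjusted 95% interval. Filled circles are genes with an adjusted p under 0.05, open circles those above it, and grey ticks the values under the 10 alternative fits. Olr1 lies farthest to the right at 1.12 and Cd68 farthest to the left at -0.68, and the ticks of Axl fall on both sides of 0.

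Of the TAM kinases Mertk was called and Axl and Tyro3 were not. Mertk, the receptor kinase most closely tied to the clearance of apoptotic cells by macrophages, was at 203 and 187 CPM in controls and at 164 and 145 CPM in Acly-E14si libraries. The nearest libraries of the groups were 0.18 apart on the log2 scale, about as far as the treated libraries were from each other (0.19). Mertk fell to 0.792 of the control level (log2 -0.34, SE 0.082, edgeR adjusted p = 0.026). This was the least stable of the 5 calls. It was lost without control 1 (adjusted p = 0.136), control 2 (0.053) or Acly-E14si 2 (0.111), without the filter on low counts (0.057), with unscaled totals (0.051) and with limma on log2(FPKM + 1) (0.062).

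Axl, which is known to be induced by inflammatory and interferon signals and is also made by fibroblasts, was nearly the same in both groups. It was at 925 and 964 CPM in controls and at 943 and 933 CPM in Acly-E14si libraries, so in TMM-scaled CPM both treated libraries lay between the controls. The log2 change was -0.01 with a 95% interval of -0.14 to 0.12 (edgeR adjusted p = 0.90). Scaled by library totals alone the log2 change was 0.08, and it was not called under any of the 10 alternative fits. In FPKM, which has no TMM factors, both treated libraries (113.1 and 113.3) lay above both controls (103.6 and 110.4), so the overlap depends on the scaling. Tyro3, the remaining member of the family, was at 2.63 and 2.85 CPM in controls and at 3.29 and 2.88 CPM in the others, and was not called (adjusted p = 0.58). Whether Mertk and Axl changed by different amounts was not tested. The ratio of Mertk to Axl in FPKM was 0.308 and 0.271 in controls and 0.244 and 0.217 in Acly-E14si libraries. Mertk spans 128698956 to 128802894 on the plus strand of chromosome 2, and Axl 25757273 to 25788705 on the minus strand of chromosome 7.

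Trem2 was at 204 and 194 CPM in controls and at 257 and 246 CPM in Acly-E14si libraries. The treated libraries were both higher, by 0.27 on the log2 scale at the nearest, and libraries of a group differed by at most 0.075. The rise was 1.26-fold (log2 0.34, SE 0.057, edgeR adjusted p = 0.0086). Without control 2 the adjusted p was 0.053, with a log2 change of 0.30. Trem2 occupies 48346401 to 48354147 on the plus strand of chromosome 17.

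Scaled by gene length, Cd68 had by far the highest level of the 8. In FPKM, the count divided by gene length and library total, Cd68 was at 939 and 818 in controls and 589 and 582 in Acly-E14si libraries. In controls Msr1 (111 and 121 FPKM) and Axl (104 and 110 FPKM) followed, and the highest Axl value (110.4) lay just under the lowest Msr1 value (110.8), closer than the libraries of either gene. In the Acly-E14si libraries Msr1, at 166 and 159 FPKM, stood apart from Axl at 113 and 113 FPKM.

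Trem2 (32.0 and 31.0 FPKM) and Mertk (31.9 and 29.9 FPKM) overlapped in the controls. With Acly-E14 siRNA they were separate, with Trem2 at 43.0 and 41.7 FPKM and Mertk at 27.6 and 24.6 FPKM. Olr1 went from 10.4 and 10.2 FPKM to 21.8 and 26.1 FPKM, where it overlapped Mertk. Scarb1 was at 2.19 to 2.69 FPKM over the 4 libraries and Marco at 0.331 to 0.542 FPKM, and these 2 ranked last in both groups.

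Cd68 made up 76.3% and 72.8% of the summed FPKM of the 8 genes in controls and 61.2% and 61.3% in Acly-E14si libraries. Leaving Cd68 out, the summed CPM of the remaining 7 was 1873 and 1917 in controls and 2126 and 2069 in Acly-E14si libraries. The order of levels depends on the gene lengths used. With the merged exon lengths of the GENCODE M21 annotation, which for Msr1 is 6344 bases against 3998 in the deposited table, Msr1 was at 69.8 and 76.3 FPKM in controls and Axl at 176 and 188 FPKM, so that Axl stood above Msr1. With these lengths Mertk, at 44.9 and 42.2 FPKM, stood above Trem2, at 39.5 and 38.4 FPKM, in the controls, and Olr1 in the Acly-E14si libraries (25.4 and 30.5 FPKM) stayed under Mertk (38.9 and 34.6 FPKM).

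**Figure D3:**
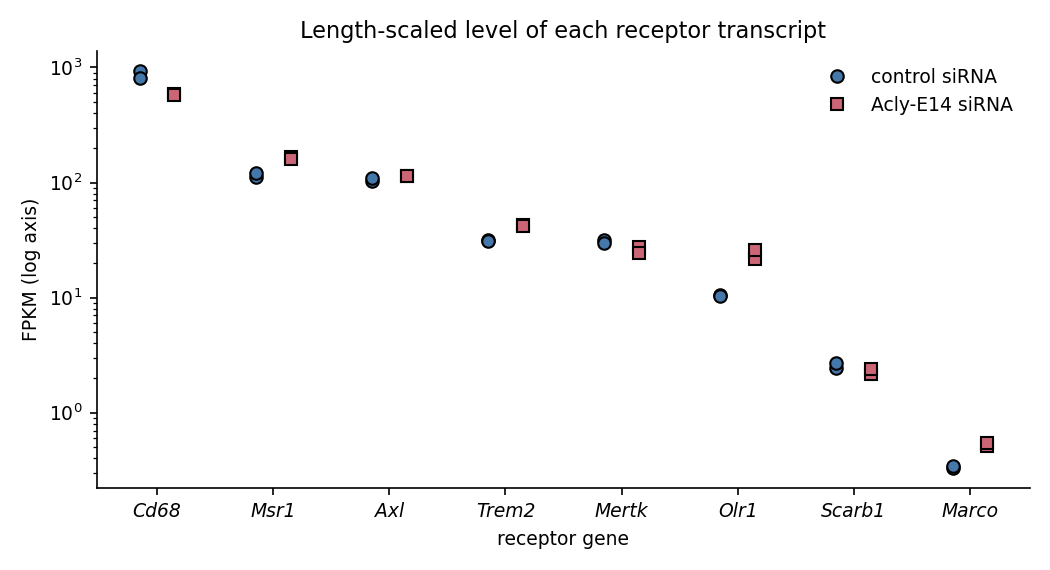
Level of each receptor gene in FPKM (y axis, log scale), ordered by the control mean, with circles for the 2 control siRNA libraries and squares for the 2 Acly-E14si libraries. Cd68 stands highest in every library, and Olr1 moves from 10.4 and 10.2 FPKM up to the range of Mertk.

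The soluble partners of these receptors differed in opposite directions. Of 13 tested bridging molecules and opsonins, 8 rose and 5 fell, with a median log2 change of 0.31 against 0.00 over all genes tested. All of them were called, against 33.2% of all genes tested. Without control 1 the count was 5 higher and 2 lower, and without Acly-E14si 1 it was 6 higher and 2 lower. Gas6, which can bind each of the TAM kinases, was at 30.1 and 32.5 CPM in controls and at 50.1 and 58.5 CPM in Acly-E14si libraries (1.73-fold, edgeR adjusted p = 0.0037). Pros1, which encodes protein S and acts on Mertk and Tyro3, was at 23.6 and 24.6 CPM against 41.8 and 41.2 CPM (1.72-fold, edgeR adjusted p = 0.0020). Gas6 and Pros1 rose in the same libraries in which Mertk was lower and Axl was not called. Not every gene of the list did so. Among the 5 that fell was Lgals3 (galectin-3), named after its values were seen. It went from 3926 and 3870 CPM in controls to 3094 and 3149 CPM in Acly-E14si libraries (log2 -0.32, edgeR adjusted p = 0.0098).

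Mfge8, which joins phosphatidylserine to αv integrins, went from 1423 and 1370 CPM to 1783 and 1684 CPM (1.24-fold, edgeR adjusted p = 0.012). Without control 1, control 2 or Acly-E14si 1 its adjusted p was 0.059, 0.070 and 0.056. Apoe, a ligand of Trem2 and of lipoprotein receptors, rose 1.44-fold to 2951 and 3012 CPM. Of the genes picked after their values were seen, Thbs1, the matrix protein thrombospondin that binds CD36 and αv integrins, rose 1.72-fold, a call that did not hold without control 1 (adjusted p = 0.058), and the complement genes C3 and C4b rose 1.39-fold and 2.01-fold. Fibroblasts make several of these proteins too, and the summed fibroblast and stroma markers were 2497 and 3596 CPM in controls against 5659 and 7010 CPM in the same Acly-E14si libraries. Their part in these rises was not tested.

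The 3 chains of C1q, the complement protein that coats dying cells, fell together. C1qa was at 74.8 and 79.9 CPM in controls and at 43.0 and 52.2 CPM in Acly-E14si libraries (log2 -0.70, edgeR adjusted p = 0.0058). C1qb showed a log2 change of -0.35 and C1qc of -0.32. The C1qb call did not hold without control 2 (adjusted p = 0.068) or Acly-E14si 1 (0.059) and with limma on log2(FPKM + 1) (0.056), and the C1qc call without control 1 (0.063).

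**Figure D4:**
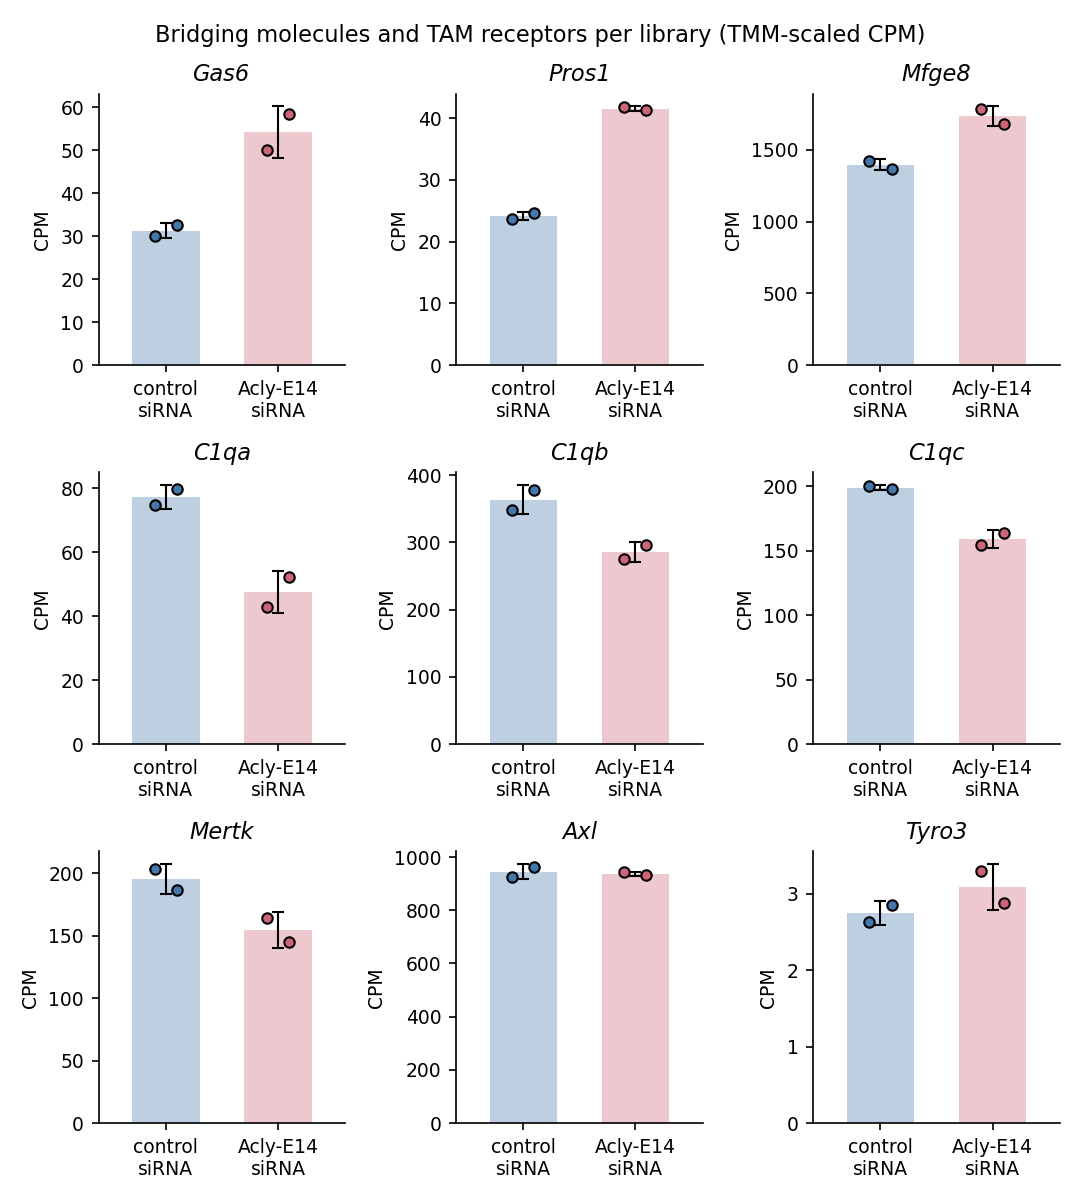
TMM-scaled CPM (y axis, each panel from 0) of bridging molecules (Gas6, Pros1, Mfge8), C1q chains and TAM kinases in the 2 libraries of each group. Points are libraries, bars means and whiskers SDs. Gas6 and Pros1 are higher and the C1q chains and Mertk lower in both Acly-E14si libraries.

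Other scavenger receptors also moved in both directions. Of 14 tested, 6 rose and 3 fell (64.3% called, against 33.2% of all genes tested), with a median log2 change of 0.29. Cd36, the class B receptor for oxidised lipoprotein and fatty acids, went from 1583 and 1461 CPM to 1107 and 1098 CPM (log2 -0.46, edgeR adjusted p = 0.0042). Mrc1, the mannose receptor, went from 324 and 303 CPM to 204 and 200 CPM (log2 -0.63, edgeR adjusted p = 0.0017). Stab1, a clearance receptor of alternatively activated macrophages, rose 1.65-fold from 13.2 and 15.1 CPM, and Lrp1, a large receptor for lipoproteins and proteases, rose 1.35-fold to 766 and 804 CPM.

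Cxcl16, a membrane chemokine that also binds oxidised lipoprotein, and the lysosomal protein gene Scarb2 had log2 changes of -0.10 and 0.15 and were not called (edgeR adjusted p = 0.21 and 0.080). Scara3 and Scarf2, named after their values were seen, rose 4.11-fold and 3.04-fold from at most 3.55 and 6.97 CPM in controls. Higher fibroblast and stroma markers (12 of 15 called higher) were present in the same libraries. Their part in these rises and in those of Stab1 and Lrp1 was not tested.

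Among 13 tested efferocytosis receptors other than the 8, 2 rose, 4 fell and 7 were not called, with a median log2 change of 0.13. Calls made up 46.2% of them, against 33.2% of all genes tested. Leaving out control 1, control 2 or Acly-E14si 1 gave 1 higher and 2 lower in each case. With unscaled totals, and with limma on log2(FPKM + 1), 3 were higher and 2 lower, so the balance of the calls depends on the scaling. Itgav, the αv integrin subunit that receives Mfge8, rose 1.73-fold from 76.3 and 76.8 to 137 and 129 CPM (edgeR adjusted p = 0.0011), though it shares 634 exon bases with an opposite-strand transcript. In the same libraries 12 of 15 fibroblast and stroma markers were higher, and their part in this rise was not tested. Of the partner subunits of Itgav, Itgb5 showed a log2 change of 0.13 (adjusted p = 0.17). Itgb3, named after its values were seen, went from 29.75 and 30.03 CPM to 20.3 and 23.5 CPM (log2 -0.45, edgeR adjusted p = 0.021). The Itgb3 call did not hold without control 1 (adjusted p = 0.083), control 2 (0.073) or Acly-E14si 1 (0.090), with unscaled totals (0.0503) and with limma on log2(FPKM + 1) (0.082). The phosphatidylserine receptor genes Timd4 and Havcr2 were at up to 1.92 and 9.27 CPM and were not called (adjusted p = 0.17 and 0.080). Cd300a and Cd300lb, members of a family of phospholipid-binding receptors that were named after their values were seen, had log2 changes of -0.84 and -0.57.

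Several genes of the signalling path of Trem2 fell in the libraries in which Trem2 itself rose. The Trem family, its adaptors and the Syk pathway had 66.7% of tested genes called, against 33.2% of all genes tested. Of their 9 tested genes, 1 rose and 5 fell, with a median log2 change of -0.29. Of these, 0 were higher and 2 lower without control 1, 0 and 3 without control 2 and 0 and 3 without Acly-E14si 2. Without the filter on low counts, and with limma on log2(FPKM + 1), 1 was higher and 2 were lower. Tyrobp was at 400 and 387 CPM in controls and at 255 and 325 CPM in Acly-E14si libraries (log2 -0.44, edgeR adjusted p = 0.032). That call did not hold without control 1 (adjusted p = 0.135) or control 2 (0.094), without the filter on low counts (0.072), with unscaled totals (0.073) and with limma on log2(FPKM + 1) (0.087).

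Syk was at 847 and 768 CPM against 689 and 633 CPM (log2 -0.29, edgeR adjusted p = 0.030), a call that did not hold without control 1 (adjusted p = 0.148) or Acly-E14si 2 (0.137), without the low-count filter (0.055), with unscaled totals (0.058) and with limma on log2(FPKM + 1) (0.069). Plcg2, the phospholipase below Syk, which was named after its values were seen, showed a log2 change of -0.58. The second adaptor, Hcst (DAP10), was at 2.51 to 3.93 CPM and was not called (adjusted p = 0.87).

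Neighbours of Trem2 on chromosome 17 moved in different directions. Within 200 kb of Trem2, 6 genes were tested, of which 1 was higher and 3 lower. Over all genes tested, 33.2% were called. Trem1, an amplifier of inflammatory signals, rested on 21 and 27 counts in controls against 54 and 48 (log2 1.01, edgeR adjusted p = 0.035), not called once any 1 library was left out (adjusted p from 0.068 to 0.173). Treml2, 33868 bases from Trem2, was chosen after its values were seen and showed a log2 change of -0.50 (edgeR adjusted p = 0.0026). Trem3, with no count in either control and 1 and 4 counts in the Acly-E14si libraries, was not tested.

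Around Olr1, 1 of 8 tested neighbours was called, against 33.2% of all genes tested. It was Clec7a, which encodes the fungal glucan receptor Dectin-1, lies 12465 bases from Olr1 and was named after its values were seen. Clec7a was at 333 and 325 CPM in controls and at 711 and 734 CPM in Acly-E14si libraries (log2 1.14, edgeR adjusted p = 0.00058). The log2 change of Olr1 was 1.12, and shared control of these genes was not tested. Gabarapl1, Clec12a, Clec1b and the other 4 were not called. Around Cd68, 3 of 17 tested neighbours were higher and 1 lower, around Scarb1 2 of 5 higher and 1 lower, around Axl 1 of 9 higher and 1 lower, around Mertk 1 of 6 higher and 0 lower, and around Marco 1 of 1 higher. Msr1 had no tested neighbour within that distance.

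The list of proteases that cut receptors from the surface also holds their carriers and inhibitors. The share called in the list was 90.0%, against 33.2% of all genes tested. Of its 10 tested genes, 7 rose and 2 fell, with a median log2 change of 0.73, and without control 1 the counts were 5 and 0. The genes above that median were the inhibitor genes Timp1 (log2 2.46), Timp2 (1.37) and Timp3 (1.001), the carrier gene Rhbdf1 (1.43) and 1 protease gene, Adam19 (1.72), and they were named after their values were seen. The Timp3 call did not hold without control 1 (adjusted p = 0.053) or Acly-E14si 2 (0.098) and without the filter on low counts (0.065), and 1733 of its exon bases are shared with the opposite-strand gene Syn3. The other proteases, Adam8, Adam9, Adam10 and Adam17, had log2 changes of 0.21, 0.46, -0.01 and -0.42. Adam17, the protease that sheds Mertk and Trem2 among many other proteins, fell to 0.746 of the control level (edgeR adjusted p = 0.0076). Its call did not hold without control 1 (adjusted p = 0.053), and it shares 311 exon bases with an opposite-strand gene. Rhbdf2, whose product iRhom2 carries Adam17 to the surface, showed a log2 change of -0.29 (edgeR adjusted p = 0.017) and was not called without control 1 (0.095), control 2 (0.065) or Acly-E14si 2 (0.079). Adam10 was at 95.2 and 98.5 CPM in controls and at 114 and 77.9 CPM in the others, so the treated libraries lay on both sides of the controls (adjusted p = 0.97). Fibroblasts express Timp genes as well, and the summed fibroblast markers stood at 2497 and 3596 CPM in controls and at 5659 and 7010 CPM in the same Acly-E14si libraries. Their part in these rises was not tested.

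Engulfment and corpse processing had 38.9% of its tested genes called, close to the 33.2% over all genes tested. Of its 18 tested genes, 4 rose and 3 fell, with a median log2 change of 0.05. Without control 1 these were 2 higher and 3 lower, and without Acly-E14si 2 they were 2 higher and 4 lower. Rac1, the small GTPase that drives actin around the particle, rose 1.70-fold from 196 and 196 to 335 and 330 CPM (edgeR adjusted p = 0.00084), but 2309 of its exon bases are shared with the opposite-strand gene Daglb. Elmo1, which helps activate Rac1, showed a log2 change of -0.50 (edgeR adjusted p = 0.0054), and 403 of its exon bases are shared with an antisense transcript. The cholesterol exporter gene Abca1 rose 1.23-fold (edgeR adjusted p = 0.030), a call that did not hold without control 1 (0.132), control 2 (0.108) or Acly-E14si 2 (0.130) and without the filter on low counts (0.069).

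Of 5 tested genes of the inhibitory axis, 1 rose and 2 fell, with a median log2 change of -0.03. Calls made up 60.0% of them, against 33.2% of all genes tested. Cd47, the surface signal that restrains phagocytosis, was at 398 and 401 CPM in controls and at 303 and 303 CPM in Acly-E14si libraries (log2 -0.40, edgeR adjusted p = 0.0034). Its receptor Sirpa was not called (log2 -0.03, adjusted p = 0.74).

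Of transcription factors known to act on macrophage receptor genes, 73.3% were called, against 33.2% of all genes tested. They moved both ways, with 7 of 15 lower, 4 higher, 4 not called and a median log2 change of -0.30. Without control 1 these were 5 lower and 2 higher, and without Acly-E14si 2 they were 4 lower and 2 higher. With unscaled totals 6 were lower and 5 higher, and with limma on log2(FPKM + 1) 5 were lower and 5 higher. Nr1h3, the oxysterol sensor LXRα known to induce Mertk and Abca1, was at 63.0 and 57.5 CPM in controls and at 43.2 and 41.2 CPM in Acly-E14si libraries (log2 -0.51, edgeR adjusted p = 0.0058). Cebpa, a myeloid lineage factor, went from 18.1 and 17.0 CPM to 8.69 and 6.76 CPM (log2 -1.18, edgeR adjusted p = 0.0036). Pparg, the fatty acid sensor known to induce Cd36, showed a log2 change of -0.76 from 8.89 and 8.04 CPM, and was not called without control 1 (adjusted p = 0.055), Acly-E14si 1 (0.059) or Acly-E14si 2 (0.061).

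Spi1, which encodes PU.1, showed a log2 change of -0.30 (edgeR adjusted p = 0.015) and was not called without control 1 (0.067), control 2 (0.077) or Acly-E14si 2 (0.076). Maf, a transcription factor of the basic leucine zipper family, showed a log2 change of -0.33 (edgeR adjusted p = 0.024) that was called in 5 of 10 alternative fits, and not without control 2 (0.101) or Acly-E14si 1 (0.103). Stab1, Cxcl16, Gas6, Thbs1, Adam19, Nr1h3, Cebpa and Maf share between 34 and 718 exon bases with other genes, so their counts are less certain than those of the 8 receptors.

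**Figure D5:**
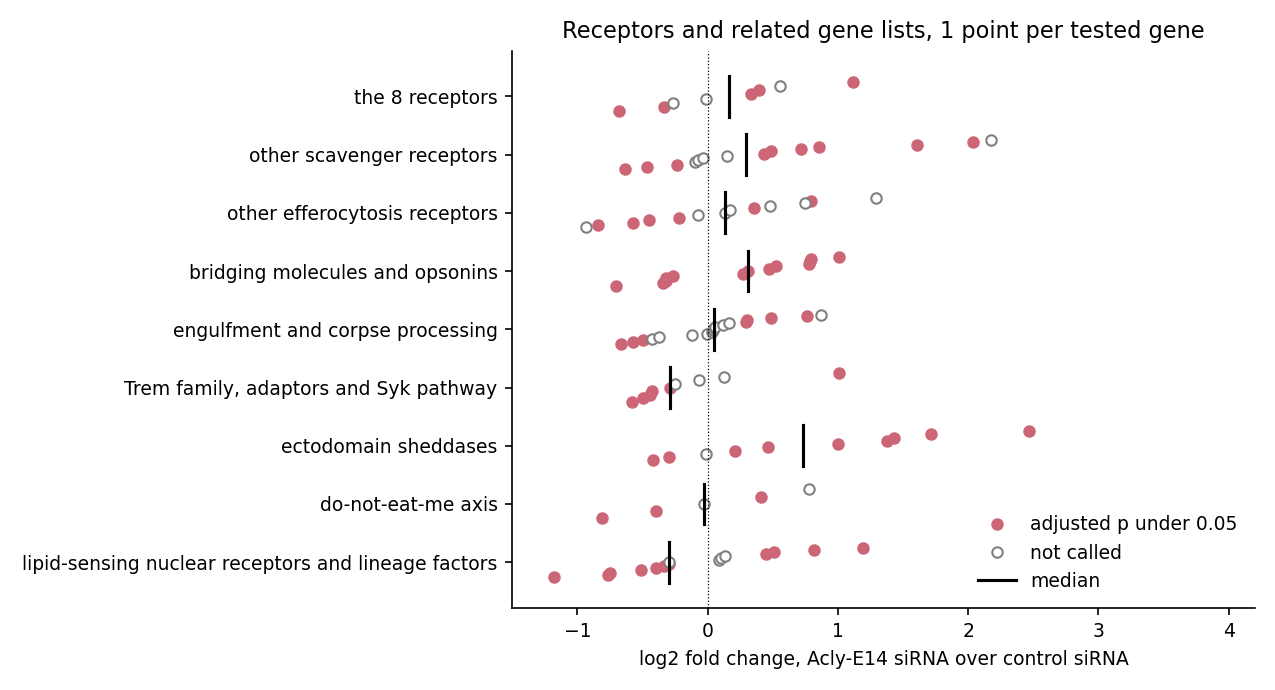
Log2 fold change (x axis, Acly-E14 siRNA over control siRNA) of the 8 receptor genes and of the tested genes of 8 related lists, 1 point per gene. Filled points have an adjusted p under 0.05, open points do not, and black bars are list medians. The 8 receptors lie on both sides of 0, while the Trem and transcription factor lists have medians of -0.29 and -0.30 and the sheddase list of 0.73.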

How the data were processed

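Whole-number values per gene were deposited by the authors for each of the 4 libraries, together with FPKM values scaled by gene length and total count. The file headers call the whole-number values counts and name no normalization. HISAT2, StringTie 1.3.0, edgeR and mm10 are named in the submitters' processing notes, without roles. The labels' protocols give 1 text for all 4 libraries that names both a stranded total RNA kit (TruSeq) and an mRNA kit (VAHTS), and which kit made which library is not stated. Neither the counting program nor its strand setting or gene models is given in the sources used here. A total of 1 FPKM column whose header lacks a replicate number was left unused. FPKM was therefore recomputed for all libraries from the counts and the lengths implied by the deposited FPKM, and 49103 of 49103 values above 0 matched within a relative tolerance of 0.001. Since the lengths came from these same values, the match does not check the lengths themselves.

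Counts were tested with edgeR 4.0.16 (R 4.3.3): filterByExpr with minimum count 10, TMM factors, the quasi-likelihood F test on group alone, and a Benjamini-Hochberg adjusted p under 0.05 over 13108 genes. SEs follow from the F statistic, and 95% intervals are unadjusted. For a single gene, the smallest two-sided p of an exact permutation test of 2 against 2 libraries is 0.333, and edgeR therefore borrows the spread from other genes. The edgeR test was also tried on counts simulated from its own fit, with far fewer genes changed than were called here. That trial cannot show how the test performs on these data. Symbols matched 34267 of 34745 IDs, coordinates are from GENCODE M21 (mm10), and upstream sequences are from RefSeq (GRCm38.p6), with no protein sequences used here.

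The 8 genes, 8 related gene lists, 7 marker lists, genes named and tests were chosen with earlier results of these data known. Besides Acly and the 8 receptors, genes were named by role; those named for their values are identified as such, and a few named by role are not reported here. Alternatives were the replicate block, leaving out each library, DESeq2 size factors, the DESeq2 1.42.0 Wald test, no filter, library totals, limma 3.58.1 on log2(FPKM + 1) and other thresholds. GENCODE lengths and neighbouring genes were added after seeing the data.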

Additional observations from a re-analysis of the deposited data

How the results depend on the processing

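No receptor gene that was called changed direction under the 10 alternative fits. Olr1 and Cd68 were called in all 10, Msr1 and Trem2 in 9 and Mertk in 4. Leaving out 1 library at a time gave 3 to 5 receptor genes called, and 2088 to 3215 genes over all genes in place of 4354. It moved the log2 change of Msr1 between 0.34 and 0.44, of Trem2 between 0.30 and 0.37 and of Mertk between -0.43 and -0.25, and the calls lost were Msr1 without control 1, Trem2 without control 2, and Mertk without either control or Acly-E14si 2. Mertk also was not called without the filter on low counts (log2 -0.34), with limma on log2(FPKM + 1) (-0.24) and with unscaled totals (-0.25). The cause was not tested. Marco was called with limma (difference of log2(FPKM + 1) 0.19). Scarb1 was called with the replicate block (log2 -0.26) and with an adjusted p under 0.1 (-0.26). With a log2 change beyond 1 required, 1 receptor gene and 1201 genes over all were called. Libraries with the same replicate number deviated together with a correlation of 0.19 across genes, from which no pairing was taken, since no label says that a number marks a shared culture, animal or day. The replicate block gave 6 receptor genes and 4896 genes over all. Calls were 52.0% rises with TMM, 65.8% with library totals, which moved the median log2 change of all genes from 0.00 to 0.09, and 65.8% with limma on log2(FPKM + 1). Marco, Trem1, Tyro3, Timd4 and Hcst each had under 100 counts in every library.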
